A study of Mus musculus with 12 samples.

Results

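The small leucine-rich proteoglycans are secreted proteins of the extracellular matrix with a core of leucine-rich repeats. Their messenger RNAs were followed here for 10 genes of the family: decorin (Dcn), biglycan (Bgn), fibromodulin (Fmod), lumican (Lum), osteoglycin (Ogn), Prelp, asporin (Aspn), osteomodulin (Omd), Ecm2 and podocan (Podn). They were found by gene symbol and chosen with earlier results of these data known. All 10 were present among the 23284 gene symbols of the deposited tables. The cells were mouse embryonic fibroblasts labelled 2o 1B MEFs, a secondary reprogramming line in which doxycycline (dox) switches on integrated reprogramming factors. They were transfected with siControl, with siMyc (against c-Myc, gene Myc) or with siGcn5 (against the acetyltransferase Gcn5, gene Kat2a), and RNA was taken either without dox or after 2 days of dox. This gave 6 groups of 2 total RNA libraries: siControl without dox, siControl with dox, siMyc without dox, siMyc with dox, siGcn5 without dox and siGcn5 with dox. All groups therefore carried the same dox-responsive factors and the same transfection step. The labels describe dox as added in embryonic stem cell medium and do not state the medium of the libraries without dox at harvest, so dox and that medium cannot be told apart. They mention siRNA pools as well as single siRNAs without tying either to these libraries, and nothing ties the 2 libraries of a group to separate cultures, so a p-value here reflects only how far these libraries vary, and that variation may be technical.

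As background, these core proteins bind collagen fibrils and regulate how thick fibrils grow, and several also hold growth factors such as TGF-β in the matrix or act on cell surface receptors. Decorin and biglycan carry chondroitin or dermatan sulfate chains, while fibromodulin, lumican and osteomodulin can carry keratan sulfate. Fibroblasts are a main source of the family in connective tissue.

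The members lie in gene clusters. Ecm2, Aspn, Omd and Ogn are consecutive coding genes on chromosome 13, Dcn and Lum are neighbours on chromosome 10, Prelp and Fmod are neighbours on chromosome 1, and Bgn and Podn stand alone on chromosomes X and 4. The 250 bases before the annotated start of each chromosome 13 gene are printed because these adjacent genes went different ways with dox, where Omd rose in siControl while Aspn and Ogn fell. They are on the + strand of GRCm38.p6 (RefSeq), at chr13:49504560-49504809 for Ecm2, chr13:49544193-49544442 for Aspn, chr13:49582212-49582461 for Omd and chr13:49607765-49608014 for Ogn, with matches to the motifs named afterwards in capitals.
Ecm2: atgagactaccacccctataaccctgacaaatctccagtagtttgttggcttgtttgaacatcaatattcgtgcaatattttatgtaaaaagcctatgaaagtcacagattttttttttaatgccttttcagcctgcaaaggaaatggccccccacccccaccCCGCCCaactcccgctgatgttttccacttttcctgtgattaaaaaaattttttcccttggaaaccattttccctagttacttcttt
Aspn: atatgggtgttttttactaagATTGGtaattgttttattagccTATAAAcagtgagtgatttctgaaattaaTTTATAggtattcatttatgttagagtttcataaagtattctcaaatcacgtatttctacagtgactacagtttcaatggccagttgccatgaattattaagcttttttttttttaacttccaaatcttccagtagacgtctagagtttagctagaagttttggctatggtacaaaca
Omd: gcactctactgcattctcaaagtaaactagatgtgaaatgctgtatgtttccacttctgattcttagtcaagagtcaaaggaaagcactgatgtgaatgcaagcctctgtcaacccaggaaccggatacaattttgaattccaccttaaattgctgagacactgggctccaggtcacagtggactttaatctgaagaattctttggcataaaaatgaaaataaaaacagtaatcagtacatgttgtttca
Ogn: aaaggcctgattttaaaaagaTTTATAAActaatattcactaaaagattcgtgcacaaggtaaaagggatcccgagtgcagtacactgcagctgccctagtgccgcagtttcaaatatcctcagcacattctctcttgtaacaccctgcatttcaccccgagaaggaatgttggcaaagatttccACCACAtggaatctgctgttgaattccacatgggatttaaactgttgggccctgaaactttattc
Both strands were searched for 7 motifs. Core promoter elements were the TATA box, spelled TATAAA, the CCAAT box, spelled as its name, and the GC box with the letters GGGCGG. Factor sites were the E-box bound by Myc with the letters CACGTG, the AP-1 site written as TGANTCA, the octamer known from Oct4 binding, which reads ATTTGCAT, and the Runx site, given by TGTGGT. Ogn held overlapping TATA box matches 229 to 222 bases upstream and a Runx match 65 to 60 bases upstream. Aspn held TATA box matches 207 to 202 and 178 to 173 bases upstream and a CCAAT match 229 to 225 bases upstream. Ecm2 held a GC box match 87 to 82 bases upstream, and the Omd window held none of the 7 motifs. Among all 32851 RefSeq promoter windows of this length, 12.4% held the TATA letters, 33.8% the CCAAT letters, 32.7% the GC box letters and 14.0% the Runx letters, against 6.02% for the E-box, 6.75% for the AP-1 site and 1.60% for the octamer. Promoter windows were matched for 8 of the 10 members, all but Dcn and Lum. Bgn held 3 GC box matches within 34 bases of its start, Podn held GC box matches in the window of 1 of its 2 starts, Prelp held a CCAAT match 15 to 11 bases upstream, and Fmod held none. A match is a description of the letters only.

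Expression is given as deposited RPKM, a read count scaled to transcript length and to the library total, so that levels can be compared between genes. Recovered gene reads per library ran from 65545587 to 188131691, and member reads from 26 (Lum, siGcn5 without dox) to 653993 (Bgn, siControl without dox). The siRNA targets followed their labels: without dox mean Myc was 19.6 RPKM in siControl against 4.69 in siMyc, and with dox 165 against 21.6, while mean Kat2a without dox was 21.9 in siControl against 1.65 in siGcn5, and with dox 54.4 against 7.69. Each target also had a lower mean than in siControl under the other siRNA. Mean Myc in siGcn5 was 8.20 RPKM without dox and 116 with dox. Mean Kat2a in siMyc was 17.0 RPKM without dox and 18.8 with dox. The siRNA groups therefore differ in more than the gene they are named for. Fibroblast markers (Thy1, Pdgfra, Pdgfrb, Vim, Twist1, Prrx1, Fn1, Col1a1, Col3a1, S100a4, Fap and Postn) all had a mean of at least 1 RPKM without dox. Their summed level was 9921 to 10202 RPKM in siControl without dox and 3167 to 3566 with dox, 9164 to 9263 and 6176 to 6373 in siMyc, and 7681 to 7862 and 4257 to 4983 in siGcn5. Epithelial markers (Cdh1, Epcam, Krt5, Krt8, Krt14, Krt18 and Krt19) summed to 17.2 to 50.0 RPKM over the 6 libraries without dox and to 491 to 1291 over the 6 with dox, led by Krt14 and Krt8. The summed markers of blood (2.28 to 8.80 RPKM over all libraries), endothelium (2.61 to 12.1), skeletal muscle (3.66 to 14.9), tendon (11.4 to 23.4) and adipocytes (6.25 to 42.3) were low, and those of cartilage and bone ran from 55.9 to 263 RPKM. The cartilage and bone sum was 187 to 212 RPKM in siControl without dox and 55.9 to 76.6 with dox, 163 to 165 and 257 to 263 in siMyc, and 105 to 116 and 56.5 to 60.9 in siGcn5. Of the 6 genes of this list tested, 4 fell and 2 rose with dox in siControl, where 27.9% of all genes tested fell and 46.1% rose. Col2a1, the largest part of the sum without dox, had group means of 193 and 40.7 RPKM without and with dox in siControl. In siMyc its means were 158 and 81.7, and in siGcn5 104 and 44.3. Bglap, osteocalcin, went the other way, with means of 0.0849 and 22.2 RPKM without and with dox in siControl. In siMyc its means were 0.116 and 163, and in siGcn5 0.0388 and 8.61, the same order of groups as Dcn. Bglap passed the filter of at least 1 RPKM in 2 libraries only through libraries with dox, which favours a rise. Of the adipocyte and cartilage and bone lists, Lep was listed at 0 in all 6 groups, and Adipoq, Plin1, Ibsp, Matn1 and Dmp1 each in at least 1 group. The adipocyte genes Fabp4 and Pparg were present, with means of 9.52 and 5.21 RPKM in siControl without dox and 22.4 and 15.8 in siGcn5 without dox. The endothelial gene Tek had means of 0.0396 RPKM without and 8.11 with dox in siControl. Kdr and Emcn of that list had means of at most 2.41 and 1.67 RPKM in any group, and Pecam1 and Cdh5 0.618 and 0.261. Of all the markers, Fn1, Col1a1 and Col3a1 are also in the collagen list used for the pathway counts. Kdr is in the receptor list there and Acan in the list of other proteoglycan cores. The fibroblast, epithelial and cartilage and bone sums moved between the same groups as the members, and their part in the results was not tested. In bulk RNA, fewer cells of a type and less RNA per cell cannot be told apart.

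**Figure D1:**
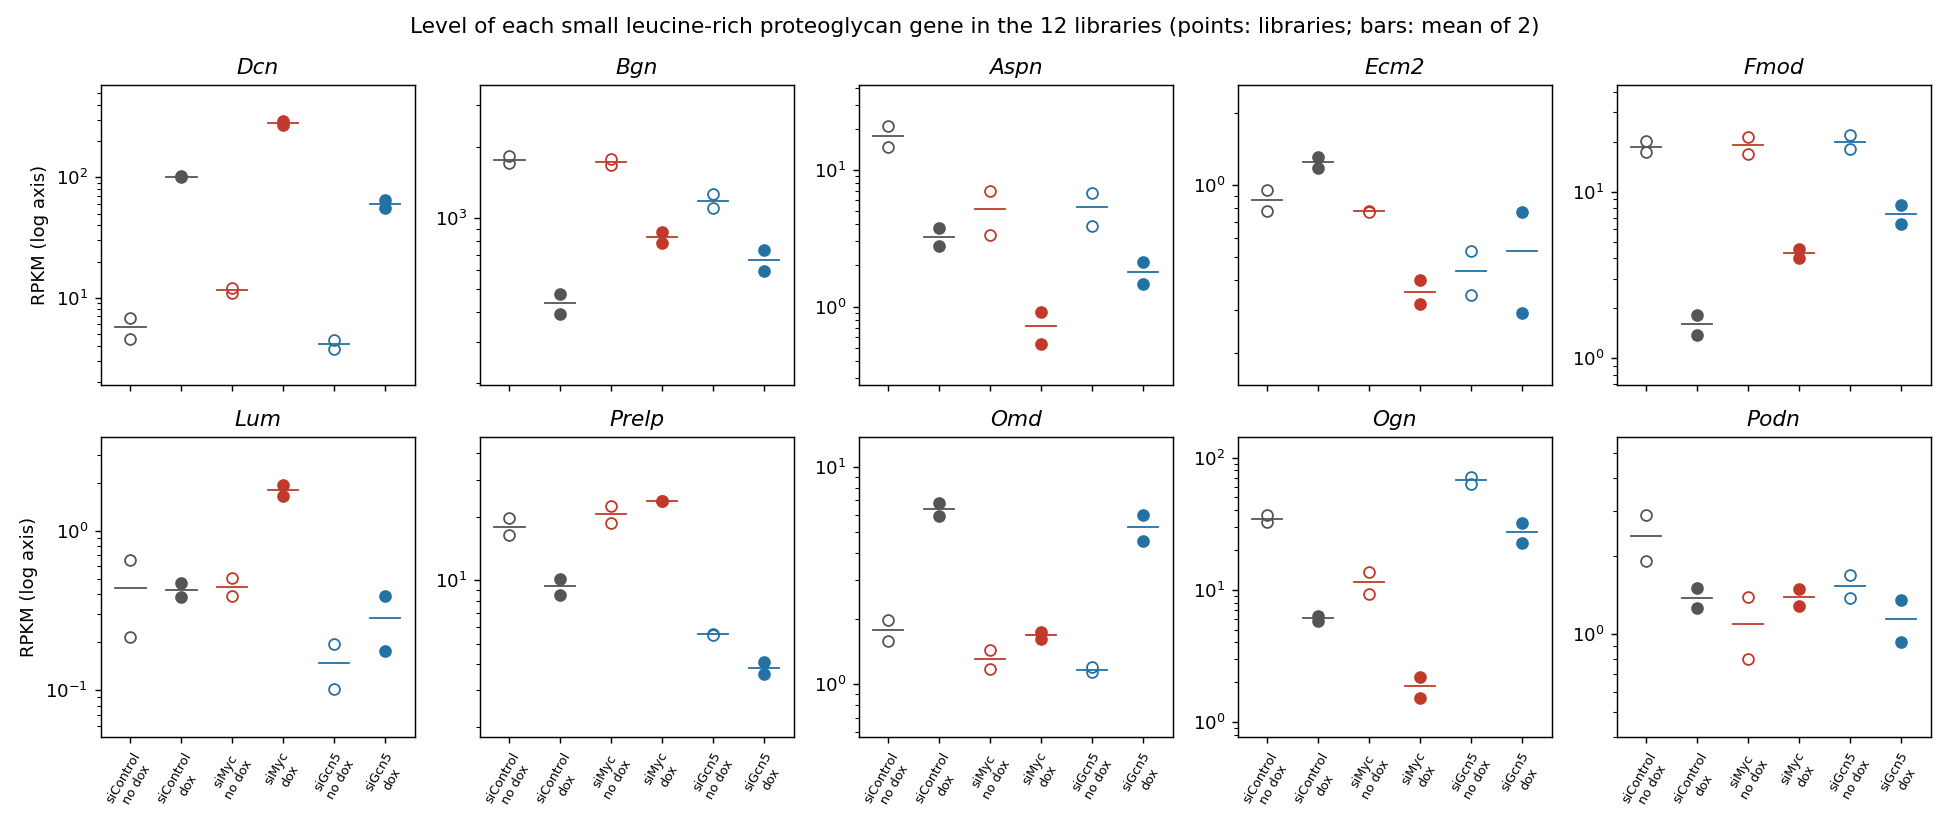
RPKM of each of the 10 genes (log axis, a separate range for each gene) in the 12 libraries, by group. Points are libraries, open without dox and filled with dox, and bars are means of 2. Dcn with dox lies above Dcn without dox under every siRNA, Fmod, Ogn, Aspn and Bgn lie below, and Omd is high with dox in siControl and siGcn5 but not in siMyc.

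Dcn, the core protein of decorin, was the member that rose with dox under all 3 siRNAs. Without dox it stood at 4.59 and 6.81 RPKM in the siControl libraries, at 10.9 and 12.1 in the siMyc libraries and at 3.77 and 4.46 in the siGcn5 libraries. With dox it stood at 100.2 and 103 RPKM in siControl, at 272 and 293 in siMyc and at 56.1 and 65.2 in siGcn5. All 6 dox libraries were above all 6 others, and within each state siMyc was highest and siGcn5 lowest with no overlap between neighbouring groups. The ratio of mean RPKM with dox to without was 17.8 in siControl, 24.5 in siMyc and 14.7 in siGcn5. On the log2(RPKM + 1) scale used for all tests, with ± giving the standard error, these were rises of 3.95 ± 0.14 (adjusted p = 1.52e-08), 4.50 ± 0.14 (adjusted p = 2.44e-09) and 3.59 ± 0.14 (adjusted p = 2.74e-08). With dox, Dcn was 1.47 ± 0.14 higher under siMyc than under siControl (adjusted p = 5.94e-06) and 0.74 ± 0.14 lower under siGcn5, a log2 change of -0.74 (adjusted p = 0.00163). The libraries of siMyc and siGcn5 sat on opposite sides of siControl for this gene, and the direct difference between siMyc and siGcn5 with dox was 2.21 ± 0.14 (adjusted p = 8.05e-07).

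The smaller differences of Dcn were less secure. Without dox the siGcn5 libraries were lower than siControl by a log2 change of -0.37 ± 0.14 (adjusted p = 0.0450). That call was lost when any of 8 single libraries was left out (all but siControl without dox replicate 1, siGcn5 without dox replicate 2 and both siGcn5 libraries with dox), with adjusted p from 0.0545 to 0.415, and the change was -0.13 without siControl without dox replicate 2 and -0.61 (adjusted p = 0.00396) without replicate 1 of that group. It was also lost with no filter on low values (adjusted p = 0.0882), with voom on recovered reads (adjusted p = 0.0590) and with a fit of the 2 groups only (adjusted p = 0.146). The dox rise was larger under siMyc than under siControl by 0.55 ± 0.20 (interaction, adjusted p = 0.0413). It too was lost when any of 7 single libraries was left out (each siControl and siMyc library but siControl without dox replicate 1), with adjusted p from 0.0547 to 0.143 and a value of 0.31 without siControl without dox replicate 2, and with a pseudocount of 0.1 (adjusted p = 0.12), no filter (adjusted p = 0.0805) or voom (adjusted p = 0.0874).

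Bgn, biglycan, the closest relative of decorin and likewise a carrier of chondroitin or dermatan sulfate, was by far the most abundant member and changed in the other direction. Its level was 1703 and 1824 RPKM in siControl without dox and 478 and 393 with dox. In siMyc it was 1679 and 1780 RPKM without and 871 and 784 with dox. In siGcn5 it was 1099.6 and 1258 RPKM without dox and 729 and 595 with dox. The siControl range was therefore the widest, and the siGcn5 libraries were below siControl without dox but above it with dox. Dox lowered Bgn by a log2 change of -2.02 ± 0.13 in siControl (adjusted p = 4.39e-07), -1.06 ± 0.13 in siMyc (adjusted p = 6.24e-05) and -0.84 ± 0.13 in siGcn5 (adjusted p = 0.000325). The fall was smaller than in siControl by 0.96 ± 0.18 under siMyc (interaction, adjusted p = 0.00140) and by 1.19 ± 0.18 under siGcn5 (interaction, adjusted p = 0.00345). Without dox, siGcn5 differed from siControl by -0.58 ± 0.13 (adjusted p = 0.00275), while siMyc differed by -0.03 with a 95% interval of -0.31 to 0.25. With dox both siRNAs were above siControl, siMyc by 0.93 ± 0.13 (adjusted p = 6.49e-05) and siGcn5 by 0.60 ± 0.13 (adjusted p = 0.00249).

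Aspn, asporin, an aspartate-rich relative of decorin that binds collagen and TGF-β, was high in a single group. Its level was 14.8 and 21.0 RPKM in siControl without dox, and with dox it was 2.77 and 3.74. In siMyc it was 3.32 and 7.04 RPKM without dox and 0.532 and 0.909 with dox, and in siGcn5 it was 3.91 and 6.78 without dox and 1.46 and 2.10 with dox. The siControl libraries without dox lay above all 10 others, and the siMyc libraries with dox below all others. Without dox, siMyc (-1.66 ± 0.31, adjusted p = 0.00443) and siGcn5 (-1.59 ± 0.31, adjusted p = 0.00141) both lowered it. Dox lowered it under every siRNA, by -2.14 ± 0.31 in siControl (adjusted p = 0.000105), -1.79 ± 0.31 in siMyc (adjusted p = 0.000843) and -1.16 ± 0.31 in siGcn5 (adjusted p = 0.00820). The siGcn5 call ended without siGcn5 without dox replicate 2 (adjusted p = 0.0703). With dox, siMyc lowered it further by -1.31 ± 0.31 (adjusted p = 0.00275), a change of -2.06 with a pseudocount of 0.1, and the siGcn5 difference of -0.61 ± 0.31 did not pass (adjusted p = 0.110), though it did in a fit of the 2 groups only (adjusted p = 0.0246). Exons of Aspn overlap those of the antisense gene Cenpp in the annotation, and strand handling in counting is not given in the sources used here, so reads of the 2 genes may not be separated. Cenpp itself stood at 1.37 to 7.92 RPKM over the 12 libraries.

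Ecm2, whose repeats resemble those of decorin, was near the detection filter. It was 0.954 and 0.778 RPKM in siControl without dox and 1.18 and 1.31 with dox, in siMyc 0.780 and 0.771 without and 0.318 and 0.401 with dox, and in siGcn5 0.348 and 0.531 without and 0.293 and 0.769 with dox. It passed the filter of at least 1 RPKM in 2 libraries only through siControl with dox, the group in which it was highest, so the filter favours a lower level elsewhere and p-values against that group are given from the fit with no filter. In that fit, with dox it was lower than in siControl under siMyc by a log2 change of -0.72 ± 0.13 (adjusted p = 0.00178) and under siGcn5 by -0.57 ± 0.13 (adjusted p = 0.0107). The log2(RPKM + 1) scale understates changes of so low a gene: with a pseudocount of 0.1 these differences were -1.55 and -1.20. In the filtered fit, leaving out siGcn5 with dox replicate 1 gave a siGcn5 difference of -0.34. The fall with dox in siMyc (-0.39 ± 0.13, adjusted p = 0.0373) was lost without any of the 4 libraries compared, with adjusted p from 0.0780 to 0.142, and the lower level in siGcn5 without dox (-0.38 ± 0.13, adjusted p = 0.0334) was lost without either siControl library (adjusted p = 0.168 and 0.0592) or siGcn5 replicate 1 (adjusted p = 0.194), and both were lost with no filter (adjusted p = 0.0563 and 0.0569). With a pseudocount of 0.1 these were -0.94 and -0.86.

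Fmod, fibromodulin, a keratan sulfate carrier that binds collagen I fibrils, had overlapping levels under the 3 siRNAs without dox and separated with dox. Without dox it was 17.3 and 20.2 RPKM in siControl, 17.0 and 21.2 in siMyc and 18.1 and 21.9 in siGcn5, ranges that overlap. With dox it was 1.81 and 1.38 RPKM in siControl, 4.52 and 4.02 in siMyc and 8.32 and 6.44 in siGcn5, ranges that do not. Mean RPKM without dox was 11.7 times that with dox in siControl, 4.47 times in siMyc and 2.71 times in siGcn5. The log2 changes with dox were -2.92 ± 0.15 (adjusted p = 1.54e-07), -1.92 ± 0.15 (adjusted p = 3.02e-06) and -1.33 ± 0.15 (adjusted p = 5.73e-05). Against siControl with dox, siMyc was higher by 1.02 ± 0.15 (adjusted p = 0.000133) and siGcn5 by 1.69 ± 0.15 (adjusted p = 3.40e-05). The dox fall was smaller than in siControl by 1.00 ± 0.22 under siMyc (interaction, adjusted p = 0.00325) and by 1.60 ± 0.22 under siGcn5 (interaction, adjusted p = 0.00255). Without dox the differences from siControl were 0.02 for siMyc (95% interval -0.32 to 0.36) and 0.09 for siGcn5 (95% interval -0.25 to 0.43).

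Lum, lumican, another keratan sulfate carrier and the neighbour of Dcn, was low in all libraries. It was 0.215 and 0.655 RPKM in siControl without dox and 0.384 and 0.471 with dox, in siMyc 0.388 and 0.503 without and 1.66 and 1.93 with dox, and in siGcn5 0.101 and 0.195 without and 0.176 and 0.391 with dox. Only the siMyc libraries with dox reached 1 RPKM, and Lum passed the filter through that group alone, a filter that favours a difference there, so its p-values for that group are given from the fit with no filter. In that fit the difference was 0.95 ± 0.14 with dox in siMyc (adjusted p = 0.00114) and 0.97 ± 0.14 against siControl with dox (adjusted p = 0.000469), on counts of 226 and 752 reads. With a pseudocount of 0.1 the same changes were 1.80 and 1.85. In siControl the dox change was 0.01 with a 95% interval of -0.30 to 0.32, and the difference between the siMyc and siControl dox changes was 0.94 ± 0.20 (interaction, adjusted p = 0.00733 with no filter), or 1.69 with a pseudocount of 0.1.

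Prelp, a member without a sulfated chain that links basement membrane and collagen, separated the siRNAs more than the dox states. It was 19.6 and 16.3 RPKM in siControl without dox and 10.2 and 8.53 with dox, and in siMyc it was 22.6 and 18.7 without dox and 23.8 and 23.8 with dox. In siGcn5 it was 5.58 and 5.51 RPKM without dox and 4.09 and 3.59 with dox, the 4 lowest values of all libraries. Without dox siGcn5 lowered it by a log2 change of -1.53 ± 0.12 (adjusted p = 1.09e-05), and the siMyc difference was 0.19 with a 95% interval of -0.07 to 0.45. With dox siGcn5 was lower than siControl by -1.09 ± 0.12 (adjusted p = 7.85e-05) and siMyc was higher by 1.27 ± 0.12 (adjusted p = 4.83e-06). Dox lowered Prelp in siControl by -0.87 ± 0.12 (adjusted p = 7.34e-05). In siGcn5 the fall was -0.44 ± 0.12 (adjusted p = 0.00971), a call lost without siGcn5 with dox replicate 2 (adjusted p = 0.0665). In siMyc the dox change of 0.20 ± 0.12 did not pass (adjusted p = 0.197), and it differed from that in siControl by 1.08 ± 0.17 (interaction, adjusted p = 0.000540). Exons of Prelp overlap those of the antisense gene Gm15851, so its counts carry the same strand limit as Aspn.

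Omd, osteomodulin, a keratan sulfate member described mainly in bone, rose with dox in siControl and siGcn5. It was 1.96 and 1.58 RPKM in siControl without dox and 6.83 and 5.95 with dox, and in siGcn5 it was 1.14 and 1.20 without dox and 4.54 and 6.02 with dox. In siMyc it was 1.43 and 1.17 RPKM without dox and 1.61 and 1.74 with dox. The 4 dox libraries of siControl and siGcn5 were above all 8 others. The rise was 1.42 ± 0.13 in siControl (adjusted p = 3.56e-06) and 1.52 ± 0.13 in siGcn5 (adjusted p = 6.40e-06), and the change in siMyc was 0.22 with a 95% interval of -0.06 to 0.50 (adjusted p = 0.183). The difference between the siMyc and siControl dox changes was -1.20 ± 0.18 (interaction, adjusted p = 0.000402), and with dox siMyc was below siControl by a log2 change of -1.46 ± 0.13 (adjusted p = 2.66e-06). Without dox siGcn5 was below siControl by -0.35 ± 0.13 (adjusted p = 0.0342), -0.55 with a pseudocount of 0.1, a call lost without siControl replicate 1 (adjusted p = 0.211) or either siGcn5 library (adjusted p = 0.126 and 0.0789) and with no filter (adjusted p = 0.0722).

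Ogn, osteoglycin or mimecan, showed the widest spread between siMyc and siGcn5 of the 10 genes. It was 32.4 and 36.7 RPKM in siControl without dox, 9.37 and 13.6 in siMyc and 71.3 and 63.3 in siGcn5. With dox it was 5.86 and 6.37 RPKM in siControl, 1.53 and 2.19 in siMyc and 32.1 and 22.6 in siGcn5. Within each state the order was siGcn5, siControl, siMyc, with no overlap, the reverse of the order of Dcn. Without dox siMyc lowered Ogn by a log2 change of -1.53 ± 0.19 (adjusted p = 0.000945) and siGcn5 raised it by 0.94 ± 0.19 (adjusted p = 0.00194). With dox the siMyc difference was -1.32 ± 0.19 (adjusted p = 0.000104) and the siGcn5 difference 1.97 ± 0.19 (adjusted p = 4.49e-05), and mean RPKM was 14.7 times higher in siGcn5 than in siMyc (log2 change of siMyc against siGcn5 -3.30 ± 0.19, adjusted p = 4.59e-07). Dox lowered Ogn by -2.32 ± 0.19 in siControl (adjusted p = 2.21e-06), -2.12 ± 0.19 in siMyc (adjusted p = 8.29e-06) and -1.29 ± 0.19 in siGcn5 (adjusted p = 0.000298). The smaller fall in siGcn5 passed the interaction test (1.03 ± 0.27, adjusted p = 0.0208) but not without any of 5 single libraries (siControl without dox replicate 2, either siControl library with dox, siGcn5 without dox replicate 2, siGcn5 with dox replicate 1), where adjusted p ran from 0.0531 to 0.0751, or with no filter (adjusted p = 0.0501).

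Podn, podocan, stayed between 0.799 and 2.88 RPKM in every library. It was 1.91 and 2.88 RPKM in siControl without dox and 1.51 and 1.26 with dox, in siMyc 0.799 and 1.39 without and 1.29 and 1.49 with dox, and in siGcn5 1.38 and 1.69 without and 1.35 and 0.935 with dox. The siControl libraries without dox were the highest. The other groups overlapped, except that siGcn5 without dox lay above siGcn5 with dox, a difference that was not called (adjusted p = 0.234). The fall with dox in siControl (-0.50 ± 0.17, adjusted p = 0.0217) was lost without siControl without dox replicate 2 (-0.29, adjusted p = 0.196) or siControl with dox replicate 2 (adjusted p = 0.113), and was -0.76 with voom. The lower level in siMyc without dox (-0.70 ± 0.17, adjusted p = 0.0153) was lost without that siControl library (adjusted p = 0.126) or siMyc without dox replicate 1 (adjusted p = 0.138) and with a fit of the 2 groups only (adjusted p = 0.0503), and was -1.08 with a pseudocount of 0.1. No called difference of Podn was free of such a library.

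The counts over the family read as follows against the share of all 13175 genes tested. They include Lum and Ecm2, whose calls involving siMyc with dox and siControl with dox respectively are favoured by the filter and support nothing here. With dox in siControl, 2 of the 10 members rose (Dcn, Omd) and 6 fell (Fmod, Ogn, Aspn, Bgn, Prelp, Podn), while 74% of all genes were called, 46.1% higher and 27.9% lower. The median log2 change of the members was -0.68, and that of all genes tested 0.17. In siMyc dox called 2 members higher (Dcn, Lum) and 5 lower (Ogn, Fmod, Aspn, Bgn, Ecm2), with 44.8% of all genes called, 28.9% higher and 15.9% lower, and medians of -0.09 and 0.08. In siGcn5 dox called 2 members higher (Dcn, Omd) and 5 lower (Fmod, Ogn, Aspn, Bgn, Prelp), with 58.4% of all genes called, 36% higher and 22.4% lower, and medians of -0.34 and 0.08. More members were called lower than higher in all 3 comparisons, whereas more of all genes were called higher than lower. The share of rises among all calls depended on the scaling: it was 62.3%, 64.5% and 61.6% in siControl, siMyc and siGcn5 as deposited, 52.2%, 54.7% and 49.2% after median-ratio scaling, and 49.9%, 40.2% and 43.0% after quantile normalization. The members' counts were the same under both scalings, except that quantile normalization called 6 members lower in siGcn5.

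**Figure D2:**
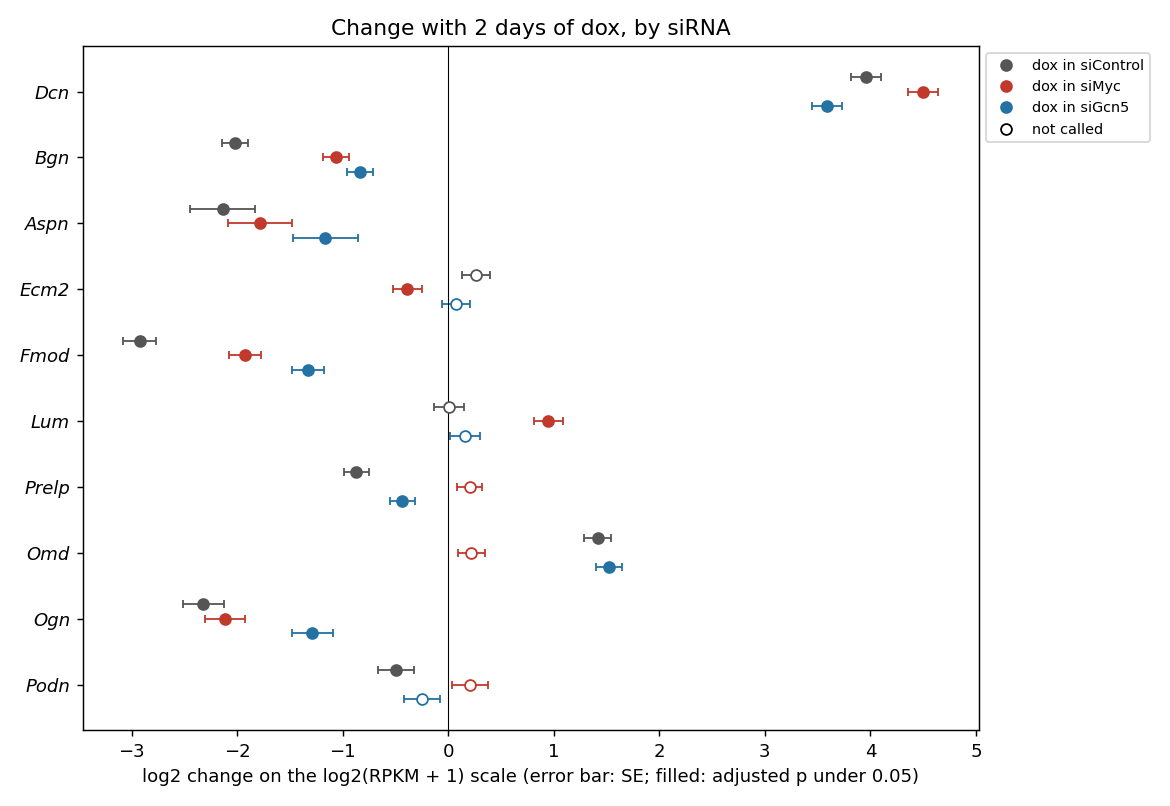
Change of each gene with 2 days of dox under siControl, siMyc and siGcn5, as the difference in log2(RPKM + 1). Points are estimates, bars are standard errors, and filled points have an adjusted p under 0.05. Dcn lies at 3.59 to 4.50 and Fmod at -2.92 to -1.33, while Prelp and Omd do not pass in siMyc.

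For the siRNAs without dox, siMyc called 1 member higher (Dcn) and 3 lower (Aspn, Ogn, Podn), where 23.5% of all genes were called, 12.8% higher and 10.7% lower. The members' median log2 change was -0.05, against 0.02 for all genes. The siGcn5 libraries without dox had 1 member called higher (Ogn) and 6 lower (Aspn, Prelp, Bgn, Ecm2, Dcn, Omd), where 57.3% of all genes were called, 36.9% higher and 20.4% lower, with medians of -0.37 and 0.11. Of these 6, Ecm2, Dcn and Omd were lost under several of the libraries named above, and Aspn, Prelp and Bgn were not lost under any library left out. The share of rises among all calls was 64.4%, and 49.5% and 54.0% under median-ratio scaling and quantile normalization, where 7 members were called lower.

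With dox, siMyc called 5 members higher than siControl (Dcn, Prelp, Fmod, Lum, Bgn) and 4 lower (Omd, Ogn, Aspn, Ecm2), where 74.9% of all genes were called, 37.7% higher and 37.1% lower. The 7 calls other than Lum and Ecm2 held when each of the 12 libraries was left out in turn. Lum and Ecm2 entered the fit only through a group compared here and are not counted as support. The 4 lower members are the 4 neighbours on chromosome 13, but Ecm2 is not counted and Aspn carries the strand limit given above. Other genes there were lower too. Cenpp, which overlaps all 4, had 2.95 and 2.61 RPKM in siMyc with dox and 6.91 and 7.92 in siControl with dox. Nol8, next to Ogn, had 5.83 and 7.42 against 18.9 and 21.5. A link among these genes was not tested. The members' median was 0.47, against 0.02 for all genes. siGcn5 with dox called 3 members higher (Ogn, Fmod, Bgn) and 3 lower (Prelp, Dcn, Ecm2), where 56.3% of all genes were called, 31.4% higher and 24.9% lower, with medians of -0.20 and 0.05. The share of rises among all calls there was 55.8%, and 47.5% and 48.7% under the other scalings, where 3 members were again called in each direction. Both comparisons share the siControl libraries with dox, so only their own values are set side by side: Fmod and Bgn were higher under both siRNAs and Ecm2 lower, while Dcn and Prelp were higher under siMyc and lower under siGcn5, and Ogn the opposite. The direct test of siMyc against siGcn5 with dox called 4 members higher in siMyc (Prelp, Dcn, Lum, Bgn) and 3 lower (Ogn, Omd, Fmod), where 65.9% of all genes were called, 27.3% higher and 38.6% lower. Prelp differed by 2.36 ± 0.12 (adjusted p = 1.97e-07), Lum by 1.13 ± 0.14 (adjusted p = 0.000267 with no filter, and 2.36 with a pseudocount of 0.1), Omd by -1.22 ± 0.13 (adjusted p = 1.35e-05) and Fmod by -0.66 ± 0.15 (adjusted p = 0.00310). The Bgn difference (0.33 ± 0.13, adjusted p = 0.0406) was lost without either siControl or siMyc library without dox, siMyc with dox replicate 1 or siGcn5 with dox replicate 2, with adjusted p from 0.0515 to 0.268 and a value of 0.18 without siGcn5 with dox replicate 2, with no filter (adjusted p = 0.0843) and with a fit of the 2 groups only (adjusted p = 0.0807), and was 0.69 under quantile normalization. The share of rises among all calls in this comparison was 41.4%, and 53.6% and 46.1% under the other scalings.

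**Figure D3:**
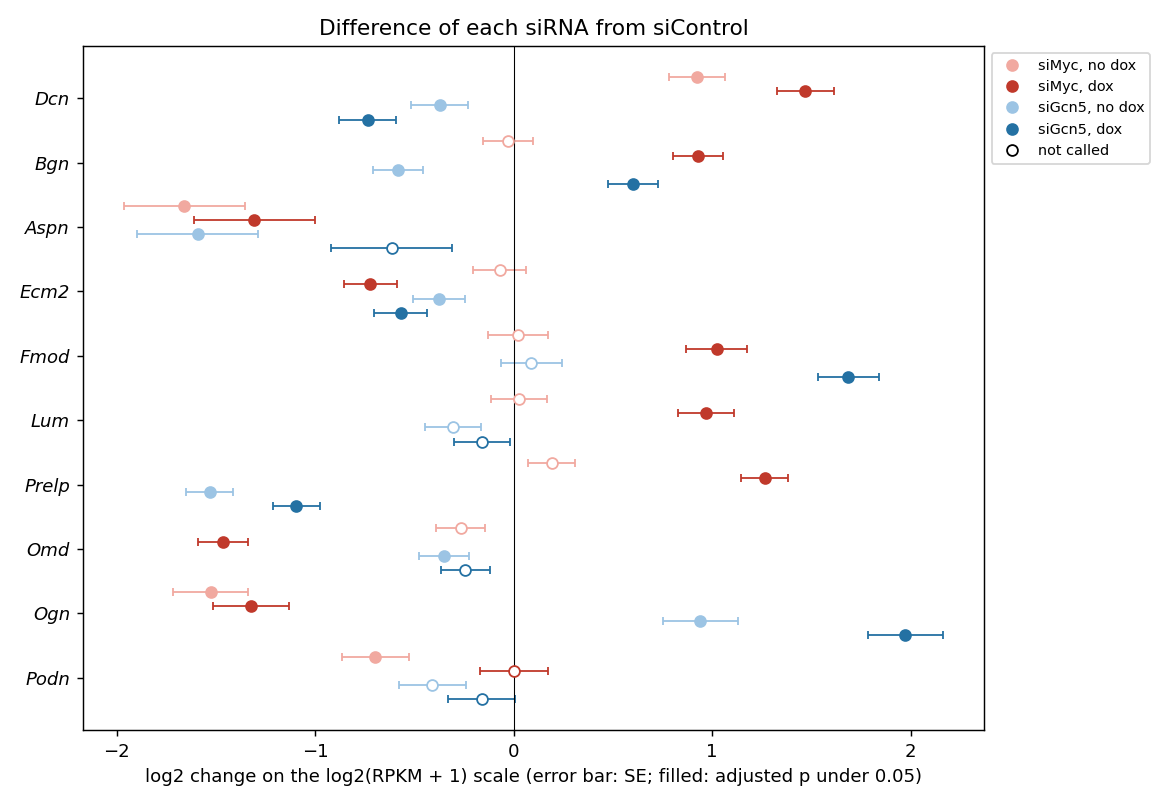
Difference of siMyc and siGcn5 from siControl without and with dox for each gene, in log2(RPKM + 1). Points are estimates, bars are standard errors, and filled points have an adjusted p under 0.05. Ogn is negative under siMyc and positive under siGcn5 in both states, Dcn is the opposite, and Bgn under siGcn5 changes from -0.58 without dox to 0.60 with dox.

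The interaction tests asked whether dox changed a member differently under an siRNA than under siControl. For siMyc, 6 members had a more positive dox change (Prelp, Fmod, Bgn, Lum, Podn, Dcn) and 2 a more negative one (Omd, Ecm2), where 54.1% of all genes were called, 24.8% more positive and 29.3% more negative. The share of more positive values among all calls was 45.8%, and 55.3% under median-ratio scaling and 47.2% under quantile normalization. The Podn value was 0.70 ± 0.24 (adjusted p = 0.0311), or 1.09 with a pseudocount of 0.1, and was lost without siControl without dox replicate 2, siControl with dox replicate 2, siMyc without dox replicate 1 or either siMyc library with dox (adjusted p from 0.0501 to 0.122), with no filter (adjusted p = 0.0668) or with quantile normalization (adjusted p = 0.0657). The Ecm2 value was -0.65 ± 0.19 (adjusted p = 0.0274 with no filter), or -1.42 with a pseudocount of 0.1. In the filtered fit it was lost without siControl without dox replicate 2, at -0.58. Without that library 5 members in all were called, against 8 with it. For siGcn5, 3 members had a more positive dox change (Fmod, Bgn, Ogn) and the other 7 were not called, where 25.9% of all genes were called, 11.4% more positive and 14.5% more negative. The share of more positive values among all calls was 44.0%, and 57.0% and 52.2% under median-ratio scaling and quantile normalization, where 4 and 3 members were called, all more positive. The members' median was 0.62 for siMyc and 0.34 for siGcn5, against -0.03 and -0.08 for all genes.

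Seen as a pool, the RNA of the family lost biglycan and gained decorin with dox. The summed level of the 10 genes was 1864 ± 94.4 RPKM (SD, n = 2) in siControl without dox and 567 ± 59.6 with dox, 1801 ± 78.5 and 1146 ± 46.5 in siMyc, and 1284 ± 112 and 770.3 ± 94.5 in siGcn5. Bgn made up 94.6% of the pool in siControl without dox and 76.7% with dox, 96.0% and 72.1% in siMyc, and 91.7% and 85.8% in siGcn5. Decorin went from 0.304% to 18.0% of the pool in siControl, from 0.640% to 24.7% in siMyc and from 0.320% to 7.98% in siGcn5. The ratio of Dcn to Bgn in the same library was 0.00269 and 0.00373 in siControl without dox and 0.210 and 0.261 with dox, in siMyc 0.00652 and 0.00682 without and 0.312 and 0.374 with dox, and in siGcn5 0.00343 and 0.00355 without and 0.0769 and 0.110 with dox. This ratio does not depend on the library total, and the 3 dox groups did not overlap.

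The 9 genes other than Bgn behaved differently as a sum. It was 93.7 and 107 RPKM in siControl without dox and 131 and 132 with dox, in siMyc 66.6 and 76.6 without and 308 and 330 with dox, and 106 in both siGcn5 libraries without dox and 108 in both with dox. In siGcn5 the sum therefore differed little between states while its makeup changed. Dcn went from 3.57% and 4.22% to 51.7% and 60.4% of it, while Ogn, at 71.3 and 63.3 RPKM without dox, was its largest part before. In siControl Dcn went from 4.89% and 6.37% to 76.7% and 78.0%, and in siMyc from 16.4% and 15.8% to 88.5% and 88.9%. These sums are descriptions and were not tested.

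**Figure D4:**
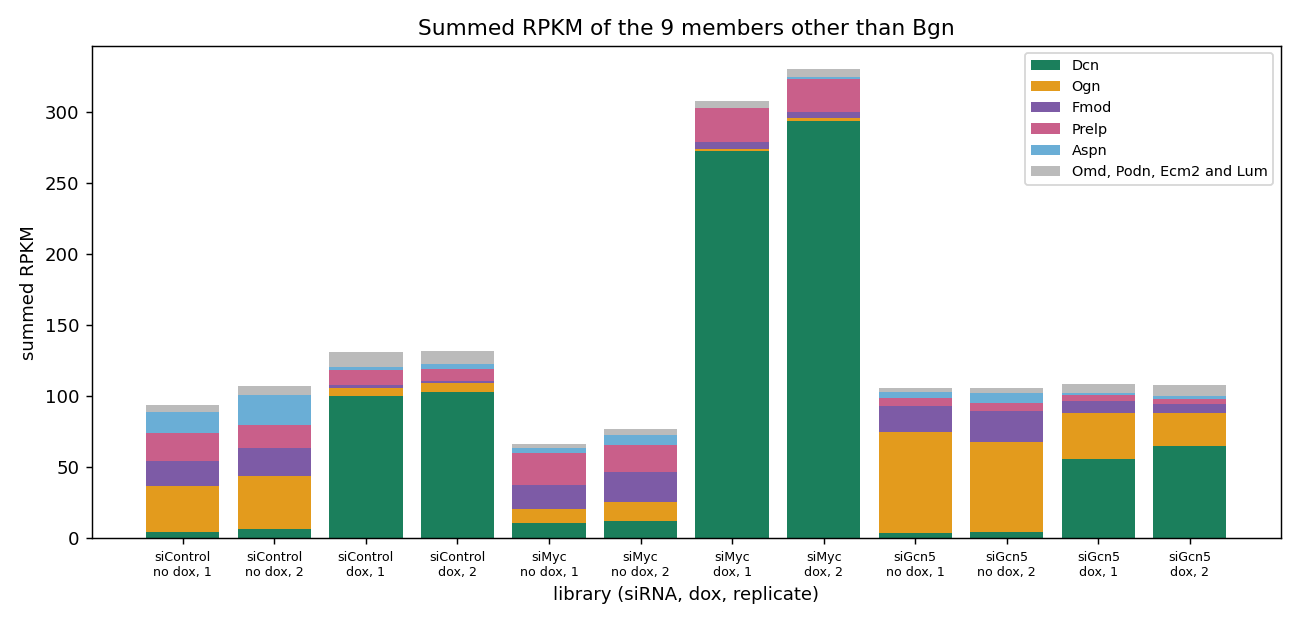
Summed RPKM of the 9 genes other than Bgn in each library, stacked by gene. Libraries are grouped by siRNA and dox state. The siMyc libraries with dox reach 308 and 330 RPKM and are mostly Dcn, while the 4 siGcn5 libraries stay between 106 and 108 with Ogn as the main part without dox and Dcn with dox.

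The order of the members by level shifted in the same way. In siControl without dox it was Bgn, Ogn, Fmod, Prelp, Aspn, Dcn, Podn, Omd, Ecm2 and Lum, where the libraries of Fmod, Prelp and Aspn overlapped from one to the next, as did Podn and Omd. With dox it was Bgn, Dcn, Prelp, Omd, Ogn, Aspn, Fmod, Podn, Ecm2 and Lum, where Omd and Ogn overlapped, as did Fmod with Podn and Podn with Ecm2. Dcn thus came directly after Bgn with dox. In siMyc with dox the order was Bgn, Dcn, Prelp, Fmod, Ogn, Lum, Omd, Podn, Aspn and Ecm2, with overlap of Ogn, Lum and Omd, and in siGcn5 with dox it was Bgn, Dcn, Ogn, Fmod, Omd, Prelp, Aspn, Podn, Ecm2 and Lum, with overlap of the last pair. Among all genes by mean level, Bgn ranked 24 in siControl without dox and 202 with dox, and Dcn 7855 and 896.

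Genes that work with these core proteins were taken from lists that were written with earlier results of these data known, and are given as counts. They are read against the shares of all genes called: 46.1% higher and 27.9% lower with dox in siControl, 37.7% and 37.1% for siMyc and 31.4% and 24.9% for siGcn5 against siControl with dox. Of the 19 collagens and fibril partners tested, 18 fell with dox in siControl and 1 (Tnxb) rose, with a median of -1.99. Tnxb, at means of 0.0706 RPKM without and 0.655 with dox in siControl, passed the filter only through libraries with dox, which favours a rise. The collagen chains Col11a1 (-2.38 ± 0.09), Col1a2 (-2.37 ± 0.09), Col1a1 (-2.37 ± 0.13) and Col3a1 (-2.36 ± 0.12) had the lowest values on the log2(RPKM + 1) scale. By the ratio of mean RPKM the elastin gene Eln, at 7.13 without and 0.726 with dox, fell further than Col11a1, at 51.2 and 9.07, and mean Col1a1 was 3854 RPKM without and 751 with dox. With dox, 15 of the 19 were higher in siMyc than in siControl and 4 were not called, led by the crosslinking enzyme Lox (1.56 ± 0.12), and 12 were higher and 1 lower in siGcn5, led by Col12a1 (1.73 ± 0.10). Median-ratio scaling made the last counts 10 and 3. Fmod and Bgn had the direction of most of this list in all 3 comparisons, while Dcn did not with dox in siControl or in siGcn5 against siControl with dox.

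Enzymes that build the chains gave the following. Of 23 genes of chondroitin and dermatan sulfate synthesis tested, 18 fell and 3 rose with dox in siControl, against 27.9% and 46.1% of all genes. Csgalnact1, which starts the chondroitin chain, fell by a log2 change of -1.50 ± 0.12, the dermatan epimerase Dse by -1.21 ± 0.09 and the sulfotransferase Chst12 by -1.15 ± 0.12. The sulfotransferase Chst13 rose by 1.76 ± 0.13. Its means without dox were 0.0799, 0.224 and 0.290 RPKM in siControl, siMyc and siGcn5. Chst13 passed the filter only through libraries with dox, which favours a rise. With dox, 17 were higher in siMyc and 2 lower, led by Chst12 (1.44 ± 0.12) and the polymerizing factor Chpf2 (1.25 ± 0.10). In siGcn5 12 were higher and 2 lower, led by the linker enzyme B4galt7 (1.20 ± 0.08). The siGcn5 count was not secure: it was 7 higher and 3 lower after median-ratio scaling, 8 and 5 after quantile normalization, 5 and 3 without siControl with dox replicate 2, and 4 and 2 without siGcn5 with dox replicate 1. Of 6 genes of keratan sulfate synthesis tested, 3 fell and 1 rose with dox in siControl, and 5 fell with quantile normalization. All 6 were higher in siMyc than in siControl with dox, under both other scalings and with each library left out, led by the keratan sulfotransferase Chst1 (2.36 ± 0.13). In siGcn5 with dox 1 was higher and 3 lower, among them Chst1 (-0.59 ± 0.13).

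Of 17 growth factors and receptors known to bind these proteins, 11 fell and 1 (Met) rose with dox in siControl. The endocytic receptor Lrp1 fell by a log2 change of -1.91 ± 0.17, Tgfb3 by -1.87 ± 0.16, Wisp1 by -1.63 ± 0.08 and Tgfb1 by -1.41 ± 0.17. With dox 14 were higher and 2 lower in siMyc, led by the innate immune receptor Tlr4 (1.95 ± 0.09) and the TGF-β receptor Tgfbr2 (1.89 ± 0.07), and 11 were higher and 5 lower in siGcn5, led by Lrp1 (1.48 ± 0.17) and Tgfb3 (1.33 ± 0.16). All 11 proteases tested that cleave these cores fell with dox in siControl, Adamts5 by -2.22 ± 0.20, Htra1 by -2.03 ± 0.12, Adamts1 by -1.95 ± 0.26 and Mmp13 by -1.88 ± 0.13. With dox 7 were higher in siMyc and 4 not called, and 10 were higher in siGcn5 and 1 not called, and the collagenase Mmp13 stood out in siGcn5 (2.72 ± 0.13). Quantile normalization made the siMyc count 5 higher and the siGcn5 count 10 higher and 1 lower. With some single libraries left out, fewer of the growth factors and receptors and fewer of the proteases were called higher, under siMyc and under siGcn5. Of 14 proteoglycan cores of other families tested, 11 fell and 1 (Sdc1) rose with dox in siControl, Gpc4 by -1.65 ± 0.08, and with dox 8 were higher and 2 lower in siMyc, the latter 1 to 3 with a library left out.

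Of other members of the leucine-rich family outside the 10, Tsku had group means of 6.38 to 26.5 RPKM and Podnl1 of 1.66 to 7.33. Kera, the neighbour of Lum, was listed at 0 in all 12 libraries, Epyc beside it reached at most 0.0401 RPKM, and Optc, the neighbour of Prelp, stayed at 0.233 to 0.936 RPKM. Of the 8 genes considered, 4 passed the filter, and with dox in siControl Podnl1 (-1.47 ± 0.15) and Chad (-0.33 ± 0.14, adjusted p = 0.0493) fell and Chadl (0.46 ± 0.10) rose. Tsku was higher in siMyc (0.74 ± 0.09) and lower in siGcn5 (-0.52 ± 0.09) than in siControl with dox. Downstream of Ogn, Nol8 stood at 6.07 to 7.11 RPKM in siControl without dox and 18.9 to 21.5 with dox.

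Each member was also set against all other genes tested by Pearson correlation of log2(RPKM + 1) over the 12 libraries, given as a description, since libraries share their groups and dox state dominates. The gene most like Dcn was Nppb, a natriuretic peptide (r = 0.994), followed by Dock9 (0.991) and Mme (0.988). Nppb had means of 1.24, 1.77 and 0.642 RPKM without dox in siControl, siMyc and siGcn5 and 20.6, 62.8 and 12.6 with dox. Bgn was most like Foxs1 (0.990), Gpr176 (0.988) and Cyba (0.987), and Fmod most like Pdgfrb (0.993), Postn (0.991) and Runx1t1 (0.990). Pdgfrb and Postn are fibroblast markers of the list above. Ogn was most like Gstm5 (0.986), Braf (0.973) and Ctf1 (0.973), Prelp most like Rab1b (0.988), Smap2 (0.987) and Cd248 (0.979), and Omd most like Mtap7d2, Thop1 and Retsat (all 0.989). Aspn was most like Zmym3 (0.975), Rps6ka2 (0.965) and Brsk1 (0.960), Lum most like Axin2 (0.965), Ispd (0.962) and Rnase4 (0.957), and Ecm2 most like Nt5dc2 (0.961), Tpst1 (0.952) and Cbx3 (0.948). Podn had no gene above 0.843 (Lrrn4cl). The number of genes with r above 0.95 was 348 for Omd, 222 for Dcn, 155 for Bgn, 98 for Fmod, 43 for Prelp, 15 for Ogn, 11 for Lum, 4 for Aspn, 2 for Ecm2 and 0 for Podn.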

How the data were processed

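Total RNA from 12 libraries (6 groups of 2) was sequenced after ribosomal RNA depletion with a stranded kit, per the labels' protocols. The authors deposited RPKM per gene symbol. The submitters' processing notes name HTSeq, affy, edgeR, Bowtie 0.12.8 and TopHat2 2.0.9, and the build mm9. The annotation, the strand setting and which tool made which value were not given in the sources used here. Low values of each gene were whole multiples of 1 read, so reads were recovered for all 20788 genes with a value (tolerance 0.05). These reads served only for depth, for the read counts of members given here and for voom. In simulated data 97.8% of genes were recovered exactly.

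From the RPKM values, log2(RPKM + 1) was fitted with limma 3.58.1 (R 4.3.3, intensity trend, 1 term per group, all 12 libraries, 6 residual degrees of freedom) over the 13175 genes with at least 1 RPKM in at least 2 libraries. All 10 members passed, Lum only through siMyc with dox and Ecm2 only through siControl with dox. Tests were two-sided, p-values were adjusted by Benjamini-Hochberg over all genes tested, and a call is an adjusted p under 0.05. The procedure was also run on simulated data with few changed genes and the same spread setting for every gene, unlike these data. Nothing here rests on that run. Members were found by symbol and all are named. Of each list, up to 4 called genes with the largest change were open to naming per comparison. Genes that go against their list's majority, Eln, Bglap and Col2a1 were named after their values were seen. Genes most like a member are the 3 with the highest Pearson r. The members and lists were chosen with earlier results of these data known. Alternatives were a pseudocount of 0.1, no filter, a mean of at least 5 RPKM, median-ratio scaling, quantile normalization, voom, only the groups compared, a replicate block and each library left out. Promoter windows and gene neighbours come from RefSeq and GENCODE on GRCm38 and not from mm9.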

Additional observations from a re-analysis of the deposited data

Results flagged for a closer look

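For 11 values the change with dox under an siRNA differed from that under siControl by the interaction test. Under siMyc the difference in log2(RPKM + 1) was 1.08 for Prelp, 1.00 for Fmod, 0.96 for Bgn, 0.94 for Lum, 0.70 for Podn, 0.55 for Dcn, -0.65 for Ecm2 and -1.20 for Omd. Under siGcn5 it was 1.60 for Fmod, 1.19 for Bgn and 1.03 for Ogn. Of these, the values of Podn, Dcn and Ecm2 under siMyc and of Ogn under siGcn5 were lost when single libraries were left out. Lum and Ecm2 passed the filter on low values only through a group in these differences.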

How the results depend on the processing

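Each called member difference kept its direction under every alternative run: with a library left out 744 values kept the call and 48 lost it, and under the other settings 495 kept it and 15 lost it. With a library left out, the number of members called ranged from 7 to 9 for dox in siControl, 6 to 7 in siMyc and 6 to 8 in siGcn5, from 3 to 4 for siMyc and 4 to 7 for siGcn5 without dox, was 9 throughout for siMyc and 6 to 7 for siGcn5 with dox, 6 to 8 for siMyc against siGcn5, 5 to 8 for the siMyc interaction and 2 to 4 for the siGcn5 interaction. The lowest count for siGcn5 without dox came without siGcn5 without dox replicate 1. No filter on low values gave 4 in place of 7 members for siGcn5 without dox, and a mean of at least 5 RPKM gave 4 in place of 8 for the siMyc interaction, where 6 of the 10 members and 8748 genes in all were tested. None of the 48 called values tested at that setting lost its call. The totals of calls kept and lost include calls of Lum and Ecm2 that the filter favours. The fits with a library left out used the same filtered genes, so they do not test that filter. The median of all genes for dox in siControl moved from 0.17 to 0.03 with median-ratio scaling and to -0.00 with quantile normalization, that for dox in siMyc from 0.08 to -0.08 and in siGcn5 from 0.08 to -0.07 with quantile normalization, and that for siMyc against siGcn5 from -0.09 to 0.03 with median-ratio scaling.

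Differences that were not called changed sign as follows, and the cause was not tested. With a pseudocount of 0.1 the siMyc interaction was -0.21 for Aspn and -0.081 for Ogn, and with voom -0.16 and -0.022. With median-ratio scaling Fmod without dox was -0.049 under siGcn5 and -0.00015 under siMyc, and Lum with dox in siControl was -0.042. With quantile normalization Bgn under siMyc without dox was 0.22, Lum -0.028 there, Fmod under siGcn5 without dox -0.035, Podn under siMyc with dox -0.14, and dox changed Lum by -0.24 in siControl and -0.20 in siGcn5, Ecm2 by -0.28 in siGcn5, and Omd by -0.024 and Podn by -0.062 in siMyc. With a library left out, the siMyc interaction ran from -0.095 to 0.80 for Aspn and -0.043 to 0.45 for Ogn, and the siGcn5 interaction from -0.42 to 0.034 for Ecm2, -0.076 to 0.37 for Lum and -0.062 to 0.28 for Omd. Under siMyc without dox the range was -0.077 to 0.021 for Bgn, -0.13 to 0.18 for Fmod and -0.20 to 0.25 for Lum, and under siGcn5 without dox -0.043 to 0.22 for Fmod. Dox changed Ecm2 in siGcn5 by -0.15 to 0.30, Lum in siControl by -0.21 to 0.23 and Podn in siMyc by -0.0027 to 0.41, Podn under siMyc with dox ran from -0.073 to 0.078, and Ecm2 in siMyc against siGcn5 from -0.38 to 0.072.

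Same-numbered libraries deviated together, with positive correlations of 0.0933 to 0.489 over all 15 pairs of groups. The labels do not say what a shared number means, so a shared replicate effect is possible. The main fit did not treat these libraries as paired. A fit with the replicate block called 5 in place of 3 members for the siGcn5 interaction, kept all 66 called member differences and called 6 more: Aspn in siGcn5 against siControl with dox (adjusted p = 0.00287), in the siGcn5 interaction (0.00457) and in siMyc against siGcn5 (0.00105), Prelp in the siGcn5 interaction (0.0161), and Lum (0.0183) and Podn (0.0455) in siGcn5 without dox. Aspn replicate 2 was above replicate 1 in all 6 groups. With 2 libraries a group, Lum and Ecm2 rest on few reads, down to 26 and 75 in a library. Aspn went down to 82, and Podn, also low in RPKM, had 267 to 1370.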
